A study of Homo sapiens with 6 samples.

Results

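Small nucleolar RNA (snoRNA) host genes were examined in LX-2, a human hepatic stellate cell line, after stimulation with recombinant human Sema3C (rhSema3C). Of 33900 genes in the table, 9 were taken by their symbols, namely GAS5, ZFAS1, SNHG1, SNHG5, SNHG6, SNHG8, SNHG12, SNHG15 and SNHG16, and all 9 passed the filter on low values that left 14178 genes for testing. The cells were wild type, and 3 samples given rhSema3C at 300 ng/ml for 48 h were compared with 3 samples given PBS for the same time. The labels name biological replicates of a single line without saying whether the cultures were independent, so the p-values measure the spread between these samples. The series asks how Sema3C, a secreted semaphorin, acts on stellate cells.

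A snoRNA host gene makes a spliced RNA whose introns release snoRNAs. Box C/D snoRNAs (SNORD) guide 2′-O-methylation of ribosomal RNA and box H/ACA snoRNAs (SNORA) guide its pseudouridylation. The spliced exons of many noncoding hosts carry only short reading frames, so that in translating cells the RNA is read by ribosomes and removed by nonsense-mediated decay. Many hosts also start with a 5′ terminal oligopyrimidine (TOP) tract, a C followed by further pyrimidines at the first bases of the transcript, which they share with the mRNAs of ribosomal proteins and translation factors.

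The first bases of 8 hosts are shown because the TOP tract lies there. The sequence of SNHG6 is not shown, and its longest starting run was 7 bases, with a run of 5 or more in 3 of its 5 transcripts. The letters come from the GRCh38 genome, at the start of the GENCODE transcript nearest the RefSeq start that opens with a C and at least 3 pyrimidines in all, or for SNHG15 the transcript with its longest run, with 40 bases before the start where it lay at the RefSeq start or within 5 bases of it. Capitals mark the starting run of pyrimidines and, where present 16 to 40 bases before the start, the letters TATAA.

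GAS5, chr1:173867960-173867989, minus strand: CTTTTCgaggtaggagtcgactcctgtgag
SNHG16, chr17:76557729-76557798, plus strand: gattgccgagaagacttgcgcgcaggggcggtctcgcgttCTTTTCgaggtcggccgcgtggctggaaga
ZFAS1, chr20:49278602-49278671, plus strand: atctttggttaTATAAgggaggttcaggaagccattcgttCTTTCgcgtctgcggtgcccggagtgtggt
SNHG5, chr6:85678704-85678773, minus strand: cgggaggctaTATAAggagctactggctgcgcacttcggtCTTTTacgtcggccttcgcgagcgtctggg
SNHG8, chr4:118278718-118278787, plus strand: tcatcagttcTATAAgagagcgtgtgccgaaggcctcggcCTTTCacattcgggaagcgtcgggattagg
SNHG12, chr1:28581844-28581913, minus strand: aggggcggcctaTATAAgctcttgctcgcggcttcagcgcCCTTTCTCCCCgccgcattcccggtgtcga
SNHG1, chr11:62855856-62855925, minus strand: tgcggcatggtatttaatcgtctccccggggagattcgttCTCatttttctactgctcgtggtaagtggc
SNHG15, chr7:44986541-44986570, minus strand: CCgccatcctgggccccacgtgttgcctga

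The runs at these starts were 6 bases long in GAS5 and SNHG16, 5 in ZFAS1, SNHG5 and SNHG8, 11 in SNHG12, 3 in SNHG1 and 2 in SNHG15. The GAS5 start shown lies 1056 bases downstream of the RefSeq start. Over all annotated transcripts, 8 of the 9 hosts had at least 1 transcript with a starting run of 5 or more pyrimidines (1 of 25 in SNHG1), and SNHG15 had none in its 10 transcripts. Such a transcript was annotated for 6.8% of 57133 genes and for 25.2% of the 8153 genes with at least 8 transcripts, whereas 66 of 79 ribosomal protein genes and 13 of 16 TOP translation factor genes had one. So did 6 of 18 other noncoding hosts and 7 of 15 protein-coding hosts. Around the RefSeq start, the longest pyrimidine run opening with a C had a median of 6 bases over 7 hosts (3 in GAS5). That median was 5 over all promoters, 11 for ribosomal protein genes and 10 for TOP translation factor genes. TATAA stood before the starts of SNHG5, SNHG8, SNHG12 and ZFAS1, starting 28 to 30 bases ahead, and the same window held it in 3.9% of 35116 RefSeq promoters. It was absent there in SNHG1 and SNHG16, while the bases before the starts of GAS5, SNHG15 and SNHG6 were not searched for it. That search was added after the sequences had been seen. In 300-base RefSeq promoter windows of the hosts other than SNHG6 and SNHG15, neither the amino acid response letters TGATGNAA nor the E-box letters CACGTG were present on either strand, against 3.6% and 7.3% of all promoters. The GAS5 window lies at its RefSeq start and does not hold the GAS5 start shown above, so the bases before that start were not searched. The SNHG15 start shown above holds CACGTG from its base 17, and none of the other starts shown holds it.

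The samples held 68267808 to 89245585 counts, which gave every host at least 392 counts in every sample. Levels are CPM, counts per 1000000 counts of the library after correction by edgeR's trimmed mean of M-values (TMM), and changes are log2 fold changes of rhSema3C over PBS from edgeR's quasi-likelihood test. The TMM factors separated the groups, with 0.958 to 0.968 in PBS and 1.03 to 1.04 in rhSema3C, and mitochondrial transcripts took 4.75% to 5.42% of PBS counts and 3.73% to 3.93% of rhSema3C counts. Results under other scalings, including a library size without mitochondrial and the 50 most abundant genes, are given below. Beyond these settings, the part of either in the results was not tested. Of 9 stellate markers, 6 passed the filter. Of these, COL1A1, COL3A1, ACTA2, TAGLN and VIM fell, and PDGFRB did not pass the test. Over all genes tested, 30.6% fell. By qRT-PCR, the paper reports higher COL1A1 and ACTA2 mRNA in LX-2 cells after rhSema3C. COL1A2, DES and LRAT were under the filter. Among 17 markers of hepatocytes, epithelium, endothelium and leukocytes, 5 passed it, of which SERPINA1 rose, CD68 and CD14 fell, and KRT7 and KDR did not pass the test, while ALB, EPCAM, PECAM1 and PTPRC were under the filter. These 5 summed to 246.9 to 269.7 CPM in PBS, mostly CD68, and to 174.6 to 190.3 CPM in rhSema3C, and their part in the results was not tested. In bulk RNA, fewer cells making a transcript and less transcript per cell cannot be told apart.

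Most of the host transcripts were higher after rhSema3C. At an adjusted p below 0.05, 7 of the 9 rose, none fell, and SNHG16 and SNHG15 did not pass. Over all genes tested, 31.7% rose and 30.6% fell at that threshold, 62.3% in all. A rise above 2-fold was measured for GAS5, ZFAS1 and SNHG5, against 3.31% of all genes, and 2.06% fell as far. On the log2(FPKM + 1) scale ZFAS1, with a mean of 1.511 FPKM in PBS, was under 2-fold (log2 0.92). With a pseudocount of 0.1 its log2 change was 1.26. The values of the groups did not overlap in 8 of 9 hosts, all higher in rhSema3C, against 34.6% of all genes that were higher and 33.3% that were lower without overlap. The median log2 fold change of the 9 hosts was 0.64, and that of all genes tested was 0.02. Because the hosts were chosen with earlier results of these data known, these comparisons with all genes are a description. Without TMM, the 9 hosts summed to 252.4, 256.5 and 267.4 CPM in the PBS samples and to 448.8, 483.5 and 448.6 CPM in the rhSema3C samples.

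**Figure D1:**
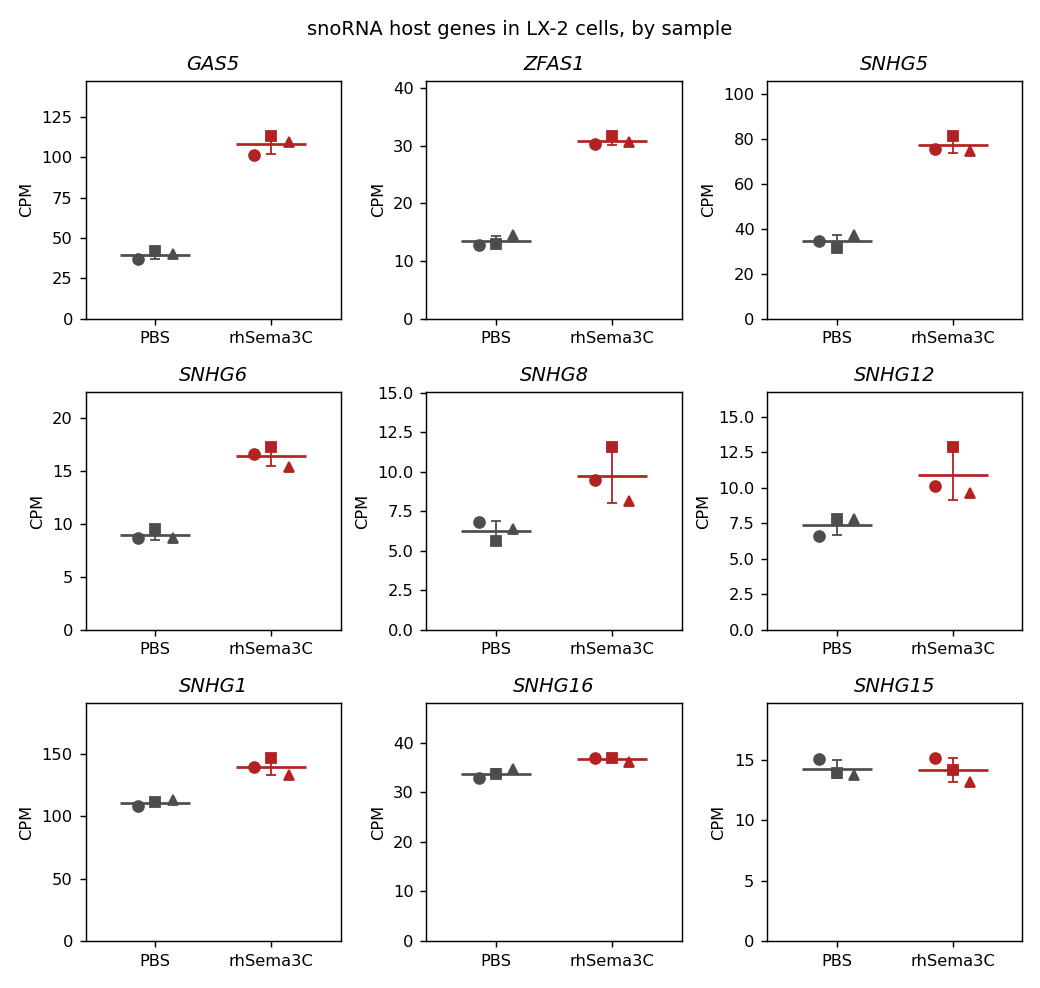
Level of each snoRNA host gene in CPM on an axis from 0, with PBS in grey and rhSema3C in red. Points are samples, with a circle, square and triangle for replicates 1, 2 and 3, long lines are means and bars are SD (n = 3). The groups lie apart in every panel except that of SNHG15.

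Among the 9 hosts, the largest change was that of GAS5, growth arrest-specific 5 (ENSG00000234741, chr1:173858559-173868882, minus strand), an RNA known to build up in cells that stop growing or translating. RefSeq places 11 snoRNAs within it, 10 of the C/D class. GAS5 measured 36.76, 41.81 and 40.12 CPM in the PBS samples and 101.4, 113.4 and 109.4 in the rhSema3C samples. The lowest rhSema3C sample lay far above the highest PBS sample. The mean rose from 39.57 ± 2.57 to 108.1 ± 6.12 CPM (SD, n = 3), which was 2.73-fold (95% interval 2.49 to 3, log2 1.45, SE 0.0615, adjusted p = 1.2e-08). By fold it stood at rank 156 among all genes tested.

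ZFAS1 (ENSG00000177410, chr20:49278178-49295738, plus strand) runs antisense from the 5′ end of ZNFX1 and hosts the 3 snoRNAs SNORD12, SNORD12B and SNORD12C. Its level was 12.79, 12.95 and 14.51 CPM in PBS and 30.21, 31.68 and 30.67 CPM in rhSema3C. The rhSema3C samples stood close together and above every PBS sample. The rise was 2.3-fold (2.04 to 2.6, log2 1.20, SE 0.079, adjusted p = 2.8e-07).

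SNHG5 (ENSG00000203875, chr6:85650491-85678754, minus strand), the host of SNORD50A and SNORD50B, measured 34.52, 31.52 and 37.14 CPM in PBS and 75.51, 81.45 and 74.86 CPM in rhSema3C. Again no value overlapped between the groups. Its rise was 2.25-fold (2.03 to 2.49, log2 1.17, SE 0.0667, adjusted p = 1.01e-07).

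SNHG6 (ENSG00000245910, chr8:66921684-66926398, minus strand) hosts SNORD87. The PBS samples held 8.627, 9.482 and 8.699 CPM and the rhSema3C samples 16.63, 17.26 and 15.37 CPM. The groups were apart, with a rise of 1.84-fold (1.59 to 2.13, log2 0.88, SE 0.0952, adjusted p = 1.21e-05).

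SNHG8 and SNHG12 had the lowest CPM of the 9 hosts. SNHG8 (ENSG00000269893, chr4:118278709-118285316, plus strand), the host of SNORA24, measured 6.813, 5.598 and 6.369 CPM in PBS and 9.489, 11.58 and 8.182 CPM in rhSema3C. SNHG12 (ENSG00000197989, chr1:28578538-28581878, minus strand), which carries SNORA16A, SNORA44, SNORA61 and SNORD99, measured 6.581, 7.812 and 7.776 CPM in PBS and 10.15, 12.86 and 9.616 CPM in rhSema3C. In both genes rhSema3C replicate 2 was the highest sample, and the other rhSema3C samples still exceeded all PBS samples. SNHG8 rose 1.56-fold (1.25 to 1.94, log2 0.64, SE 0.146, adjusted p = 0.00263). Its log2 change was 0.39 on the log2(FPKM + 1) scale and 0.67 with a pseudocount of 0.1. SNHG12 rose 1.47-fold (1.2 to 1.81, log2 0.56, SE 0.136, adjusted p = 0.00387).

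SNHG1 (ENSG00000255717, chr11:62851984-62855953, minus strand), long known as the host of U22 and now of 8 annotated SNORD genes, was the most abundant of the 9 hosts by counts. It measured 107.9, 111 and 113.1 CPM in PBS and 139, 146.5 and 132.9 CPM in rhSema3C. The samples of a group lay close, so that a rise of 1.26-fold (1.18 to 1.35, log2 0.33, SE 0.0455, adjusted p = 6.99e-05) exceeded their spread.

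SNHG16 and SNHG15 stood apart from these genes. SNHG16 (ENSG00000163597, chr17:76557764-76565348, plus strand), which hosts SNORD1A, SNORD1B and SNORD1C, measured 32.85, 33.65 and 34.69 CPM in PBS and 36.87, 36.81 and 36.13 CPM in rhSema3C. The samples did not overlap, but the log2 difference of 0.12 had a 95% interval from -0.011 to 0.248 (adjusted p = 0.102). It passed under 5 of the alternative settings, among them scaling by library size alone (log2 0.23, adjusted p = 0.00597). SNHG15 (ENSG00000232956, chr7:44983023-44986834, minus strand), the host of SNORA9, measured 15.1, 13.87 and 13.75 CPM in PBS and 15.14, 14.18 and 13.2 CPM in rhSema3C. Its values overlapped, and the 95% interval of its log2 difference ran from -0.212 to 0.198 (adjusted p = 0.953).

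**Figure D2:**
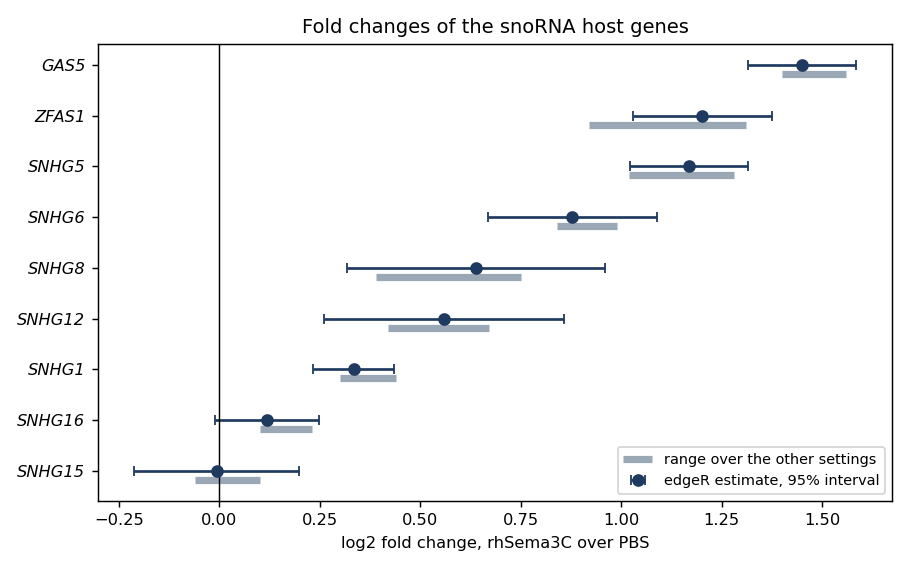
Log2 fold change of each snoRNA host gene (x axis, rhSema3C over PBS) as the edgeR estimate with its 95% interval, and in grey the lowest to highest estimate over the other settings and with single samples left out. The estimates run from 1.45 for GAS5 to -0.01 for SNHG15, and the intervals of SNHG16 and SNHG15 include 0.

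Ratios within a sample do not depend on how libraries are scaled. SNHG15 was taken as the denominator after its values had been seen, so these ratios describe the spread between hosts and are no separate evidence. GAS5 reads were 2.43, 3.02 and 2.92 times SNHG15 reads in the PBS samples and 6.69, 8 and 8.29 times in the rhSema3C samples, a log2 change of 1.46. For ZFAS1 the ratio was 0.847, 0.934 and 1.06 in PBS and 1.99, 2.23 and 2.32 in rhSema3C. ZFAS1 thus had about as many reads as SNHG15 in PBS and more in each rhSema3C sample. The ratio of SNHG1 changed by 0.34 on the log2 scale without overlap, whereas SNHG16 to SNHG15 ran from 2.17 to 2.52 in PBS and from 2.43 to 2.74 in rhSema3C, which overlap. With 3 samples against 3, the exact two-sided permutation p cannot go below 0.1, the value of every ratio except that of SNHG16 (p = 0.2).

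Levels between genes were compared per length, as the deposited FPKM. In PBS the order was SNHG1 (26.2 FPKM), GAS5 (7.662), SNHG6 (6.73), SNHG16 (5.919), SNHG15 (3.396), SNHG5 (2.549), SNHG12 (1.612), ZFAS1 (1.511) and SNHG8 (0.8889). The samples of SNHG12 (1.439 to 1.7) and ZFAS1 (1.446 to 1.641) overlapped, and no other neighbours in that order did. In rhSema3C, SNHG1 (35.49 FPKM), GAS5 (22.56) and SNHG6 (13.31) kept the first 3 ranks, while SNHG5 (6.181) and ZFAS1 (3.748) each had a higher mean than SNHG15 (3.626), although ZFAS1 and SNHG15 overlapped there. The order rests on the length the authors divided by. Counts and FPKM together imply 12990 bases for SNHG5 and 1280 for SNHG6, against median spliced lengths of 641 and 558 in GENCODE. Per kilobase of that spliced length, SNHG5 moved from rank 6 to rank 3 in PBS and SNHG6 from rank 3 to rank 7, while SNHG1, GAS5 and SNHG16 kept ranks 1, 2 and 4. In rhSema3C, SNHG1 (181.7 CPM per kilobase) and GAS5 (180.8) were nearly level on that measure, and SNHG5 had rank 3 and SNHG6 rank 6.

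The snoRNAs themselves were barely measured. Of 21 snoRNA rows that lie inside 8 of the hosts on their strand, 15 held at most 1 count in every sample and the highest single value was 11 counts. GAS5 had no such row. The changes above concern reads assigned to the host genes and say nothing of the snoRNAs.

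Close to a gene on the other strand begin GAS5, ZFAS1, SNHG1 and SNHG16, of which the first 3 have a tested neighbour there. The gene beside SNHG16, AC015802 (ENSG00000267546, 111 bases away), had 7 to 28 counts a sample and was under the filter. GAS5 and ZBTB37, a zinc finger gene, overlap by 801 bases in the table, and ZBTB37 measured 6.267, 5.627 and 6.399 CPM in PBS and 13.92, 16.01 and 17.65 CPM in rhSema3C. Both genes of this pair rose, ZBTB37 by 1.38 on the log2 scale (SE 0.117, adjusted p = 1.78e-06). The GAS5 start shown above lies outside the shared bases. The strand setting of the counting is not given in the sources used here, so reads in the shared bases cannot be assigned to a strand, and their part in the rise of either gene was not tested. ZFAS1 and ZNFX1, an RNA helicase gene, share 249 bases and moved in opposite directions, ZNFX1 being lower in rhSema3C (182.4, 158.6 and 169.9 CPM) than in PBS (213, 211.7 and 213.6 CPM, log2 -0.32, SE 0.0508, adjusted p = 0.000211). The 5′ end of SNHG1 in the table lies 149 bases from that of SLC3A2 (217 bases from the RefSeq start shown above), the heavy chain of amino acid transporters, which measured 523.2 CPM in PBS and 516.6 CPM in rhSema3C with a 95% interval of the log2 difference from -0.101 to 0.065. PRSS12, which overlaps SNHG8 by 5279 of the 6608 bases of SNHG8, measured 10.08 CPM in PBS and 10.21 CPM in rhSema3C (log2 difference 0.02, adjusted p = 0.904). GAS5-AS1, which overlaps GAS5 by 1469 bases on the other strand, measured 0.7557 CPM in PBS and 0.4972 CPM in rhSema3C (log2 difference -0.606, adjusted p = 0.117). Reads in the bases that GAS5 shares with GAS5-AS1, SNHG8 with PRSS12, or ZFAS1 with ZNFX1, cannot be assigned to a strand either. Their part in the levels and changes of these genes was not tested.

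The other noncoding host genes did not share this direction as a list. Of 21, 18 were tested, of which 5 rose, 3 fell and 10 did not pass, with a median log2 fold change of 0.03. Over all genes tested, 31.7% rose and 30.6% fell, the shares to set beside this list and the protein-coding hosts below. EPB41L4A-AS1 rose from 10.3 ± 0.17 to 18.37 ± 1.82 CPM (log2 0.83, adjusted p = 2.13e-05) and SNHG32 from 88.74 ± 2.53 to 147 ± 2.64 CPM (log2 0.73, adjusted p = 9.04e-08). DANCR, a host that is also studied as a regulator of differentiation, fell from 41.47, 46.67 and 42.66 CPM to 20.11, 19.17 and 16.52 CPM (log2 -1.23, SE 0.0852, adjusted p = 4.1e-07), and SNHG30 fell by 0.43 on the log2 scale (adjusted p = 0.0157, and 0.0554 without PBS replicate 1, 0.0595 without rhSema3C replicate 1). DANCR was thus lower in every rhSema3C sample, opposite to the 7 hosts above. Among 15 protein-coding hosts, 6 rose and 5 fell (median 0.03), led by HSPA9, a mitochondrial chaperone (log2 0.94, adjusted p = 8.12e-09), and TPT1 (0.74, adjusted p = 7.27e-08), with EIF4A1 (-0.51, adjusted p = 0.028) and NOP56 (-0.24, adjusted p = 0.000276) at the other end. EIF4A1 measured 1005, 1177 and 1083 CPM in PBS and 619.4, 596.1 and 1079 CPM in rhSema3C, so that rhSema3C replicate 3 lay within the PBS range. Its log2 change was -0.84 without that sample (adjusted p = 4e-06), and with other single samples left out it ran from -0.56 to -0.36 and passed only without PBS replicate 1 (adjusted p = 0.0312). DESeq2 gave it an adjusted p of 0.122.

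Genes with TOP mRNAs were mostly higher, where 31.7% of all genes tested rose and 30.6% fell. Of 16 translation factors and related TOP genes, 11 rose and 2 fell (median 0.41), with EEF1A1, the elongation factor that brings aminoacyl-tRNA to the ribosome, at 0.60 (adjusted p = 2.75e-08) and EEF1D at -0.31 (adjusted p = 5.87e-05). Of 79 cytosolic ribosomal proteins, 44 rose and 20 fell (median 0.24), from RPL36A at 0.88 (adjusted p = 2.1e-05) to RPS26 at -0.60 (adjusted p = 6.36e-06). Long noncoding RNAs that are not hosts gave 8 higher and 2 lower of 14 tested out of 20 (median 0.36), with MEG3 at 1.05 (adjusted p = 1.31e-08), NEAT1 at 1.03 (adjusted p = 2.69e-07) and CYTOR at -0.57 (adjusted p = 6.74e-05).

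Transcripts of the decay machinery moved in both directions, as did all genes tested, of which 31.7% rose and 30.6% fell. Of 19 factors of nonsense-mediated decay, 7 rose, 8 fell and 4 did not pass (median -0.08, which became 0 to 0.03 with the library-size scalings and limma). UPF1, the helicase at the centre of the pathway, fell from 146.9 ± 2.3 to 88.56 ± 3.75 CPM (log2 -0.73, adjusted p = 1.33e-07), and SMG5, which recruits enzymes to phosphorylated UPF1, fell from 250.4 ± 6.04 to 171.1 ± 6.97 CPM (log2 -0.55, adjusted p = 1.13e-06). SMG1, the kinase of UPF1, rose from 79.8 ± 3.43 to 114.2 ± 4.74 CPM (log2 0.52, adjusted p = 4.07e-06), and NBAS rose by 0.64 (adjusted p = 2.74e-05). Of 11 proteins of snoRNA particles and their assembly, 9 fell and 1 rose (median -0.28), FBL, the methyltransferase of C/D particles, by -0.35 (adjusted p = 1.17e-05), RUVBL2, an assembly ATPase, by -0.66 (adjusted p = 1.51e-07) and RUVBL1 by -0.48 (adjusted p = 2.97e-06). DKC1, the pseudouridine synthase of H/ACA particles, rose by 0.29 (adjusted p = 0.000142).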

How the data were processed

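The authors deposited a gene table with whole-number counts and FPKM for 6 samples, made from libraries sequenced on an Illumina NovaSeq. Their methods name Cufflinks and cuffmerge. The aligner, the strand setting and the build are not given in the sources used here. The table's coordinates matched GENCODE release 29 (GRCh38) in chromosome and at least 1 end for 86.8% of 32887 shared identifiers. Counts of 1 beside FPKM near 0 appear to be fractions rounded up in the deposited table.

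A filter at 0.5 FPKM, averaged over samples, preceded edgeR 4.0.16 (R 4.3.3, TMM, quasi-likelihood, Benjamini-Hochberg over all 14178 genes, threshold 0.05). In counts simulated with a common dispersion, it found 98.1% of 107 genes changed by a log2 of 1. It found 57% of 93 genes changed by 0.5, with 5 false calls. Far fewer genes were changed there than were called here, so the simulation does not test the scaling. Standard errors were the log2 fold change over the root of F. Alternatives used other scalings, filters, DESeq2 1.42.0, and limma 3.58.1 on log2(FPKM + 1) and log2(FPKM + 0.1). Members and lists were chosen with earlier results of these data known. Named from each list were at most 2 genes with the largest rises and 2 with the largest falls among those called. FBL, further marker symbols and neighbours without a call were added for their role. Pairs of replicates within a group differed beyond counting noise (chi-square per degree of freedom 15.9 to 27.7).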

Additional observations from a re-analysis of the deposited data

How the results depend on the processing

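The count of 7 higher hosts was the same with median-of-ratios scaling, without a filter, with DESeq2 and on leaving out single samples (7 to 7), and it was 8, with SNHG16 added, under the 2 library-size scalings and under limma at both pseudocounts. It was 4 with a mean FPKM of at least 5, where only 4 hosts were tested, and 3 when a fold above 2 was also asked. No host was lower in any of these settings. The log2 change of SNHG15 turned positive with library size alone (0.10), with mitochondrial and the 50 most abundant genes left out of the library size (0.07), with limma (0.07 with a pseudocount of 1 and 0.09 with 0.1), and without PBS replicate 1 or rhSema3C replicate 3 (0.04 each, in a range from -0.06 to 0.04 over single samples left out), and it passed in none of them. Scaling by library size alone moved the median of all genes from 0.02 to 0.13 and the calls from 4490 higher and 4339 lower to 5641 and 3433, and the median of the hosts from 0.64 to 0.75. Under it 1 protein-coding host fell in place of 5, 1 other noncoding host in place of 3 and 6 snoRNA particle proteins in place of 9. The log2(FPKM + 1) scale gave 0.39 for SNHG8 and 0.92 for ZFAS1, and also -0.82 for DANCR, -0.29 for CYTOR and 0.49 for ZBTB37, all still called. With a pseudocount of 0.1 these were 0.67, 1.26, -1.09, -0.44 and 1.22 in that order. With library size alone, SNHG30 (adjusted p = 0.058) and EIF4A1 (0.0767) lost their calls. With single samples left out, SNHG8 ranged from 0.50 to 0.75 and SNHG12 from 0.42 to 0.64.

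Replicate numbers did not pair the samples: same-numbered deviations correlated at -0.092, -0.084 and -0.037, and no sample correlated best with its own number. With the replicate block 7 hosts were higher and none lower, and the calls over all genes were 4221 higher and 4120 lower.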

Other observations

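Over the 6 samples, log2(CPM + 1) of the hosts other than SNHG15 correlated with each other at Pearson r from 0.838 (SNHG8 and SNHG16) to 0.997 (SNHG5 and ZFAS1), and SNHG15 with the others at -0.133 to 0.196. These points fall into the 2 treatment groups and share libraries, so the values mostly restate the group difference. The genes with the patterns most like GAS5 were CAMLG (r = 0.9996), GPR1 (0.9996) and MXI1 (0.999), those most like ZFAS1 were CHD2 (0.9996), MFSD14C (0.9995) and ELOVL5 (0.9995), and those most like SNHG5 were STX7 (0.9999), BNIP3 (0.9997) and TMEM39A (0.9997). The nearest to SNHG15 was GGH (0.9732), with a log2 difference of 0.01 (adjusted p = 0.944). TAF12, 7444 bases from SNHG12 on the same strand, rose by 0.69 on the log2 scale (adjusted p = 0.000118).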
